A study of Sus scrofa with 6 samples.

Results

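Unannotated intronic lncRNAs are long transcripts that the authors assembled without a match in the pig annotation, scored as non-coding, and put in the class intronic. They were selected on their class, their status and their level, which had to exceed 0.1 FPKM in at least 1 of 6 libraries. FPKM counts the fragments of a transcript per kilobase of its spliced length, scaled to the mapped fragments of the library. The files list 8006 transcripts of this class, and 7935 of them passed the level. They made up 7935 of 13635 lncRNAs above the same level and of 72511 transcripts listed in all.

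The libraries came from longissimus thoracis (LT), a muscle of the back, and semitendinosus (ST), a muscle of the hind limb, of 3 Min pigs, a local breed from China, aged 210 days. All animals carry the label WT, and no treatment is named for either group. Each muscle gave 3 libraries, and both muscles were taken from each pig, but which number stands for which pig is not stated. RNA was sequenced after removal of rRNA with a directional kit. Each transcript is listed with a strand, but whether mapping and assembly used the strand of the reads is not stated.

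An intron is the part of a gene that is cut out when its RNA is spliced. A lncRNA called intronic is thought of as an RNA whose sequence lies within the introns of a longer gene, the host gene, on the same strand or on the opposite one. A lncRNA on the opposite strand that covers exons is usually called antisense, and such RNAs are known to act on their gene in some cases and to have no known role in most.

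A pair of muscle genes checked the tissue. ACTA1, the skeletal muscle actin, lay between 1768 and 3025 FPKM over the 6 libraries, and CKM, the muscle creatine kinase, between 1807 and 2753. The other 6 of 8 fibre markers were not matched by name. Mitochondrial transcripts made up 2.91 to 4.25% of the fragments in LT and 6.15 to 8.48% in ST. The summed FPKM of 3 endothelial markers was 42.2 to 61.9 in LT and 105 to 139 in ST, with no overlap, whereas that of 5 adipocyte markers overlapped, at 65.2 to 180 in LT and 47.3 to 148 in ST. In such bulk samples, fewer cells of a type and less RNA per cell cannot be told apart. The part of these differences in the results below was not tested. The number of fragments behind each FPKM is unknown, so no counting interval is given.

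The label intronic was first set against the positions of the protein-coding genes in the same files, on the build Sscrofa11.1. All 7935 lncRNAs overlapped a protein-coding gene on the opposite strand, 7384 of them exactly 1 such gene, and 271 also overlapped a gene on their own strand. The genes opposite them numbered 5345, of which 5169 could be named. A single lncRNA lay opposite each of 3550 of these genes, and 24 genes had more than 5. The span of 5807 lncRNAs (73.2%) was contained in a gene, their host, and 5707 of these hosts were on the opposite strand. The other 2128 extended past the ends of every gene they touched.

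Exon coordinates were not used here, so only transcript ends and lengths bear on whether a lncRNA lies in introns. The span of 4434 lncRNAs (55.9%) crossed the start or the end of an opposite-strand mRNA and thus ran past the intron of that mRNA nearest to that end. Any single mRNA sufficed, also a short one, so such a lncRNA can still lie within an intron of a longer mRNA. A span holds the introns of the lncRNA as well, so its exons need not lie over those of the gene. The spliced length of 49 lncRNAs (0.618%) exceeded the summed introns of an opposite mRNA that contained them, and these had to touch an exon of it. For the others, overlap between exons was not tested. At least 1 end of 3710 lncRNAs (46.8%) fell within 100 bp of an end of an mRNA of the gene opposite, and both ends of 531 did. Over 20 equal parts of the gene opposite, counted from the 5′ end of its mRNA, the spans of 46.5% of the lncRNAs covered the first part, of at most 48.8% any part, and of 21.7% the last. The unannotated antisense lncRNAs, a class of 1553 in the same files, also overlapped an opposite-strand gene in all cases, and 69.3% crossed an mRNA end. None of 2949 lincRNAs, the intergenic class, did.

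The lncRNAs called intronic had a median of 4 exons (mean 5.54), against a median of 2 for the antisense lncRNAs and for the lincRNAs. Transcripts of 2 exons made up 15.2% of the intronic, 66.5% of the antisense and 70.4% of the lincRNA class. More than 10 exons were listed for 717 intronic lncRNAs (9.04%). Their median spliced length was 867 bp, with quartiles at 486 and 1488 bp, over a median span of 11782 bp. The longest, LNC_000416, has 31717 bp in 2 exons opposite SYNE2, a gene of the nuclear envelope, and reached 1.54 FPKM in LT replicate 2 but at most 0.00988 in any other library. Its level therefore rests on a single library.

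The exon number of 1696 lncRNAs (21.4%) equalled that of an mRNA of the gene opposite, and it exceeded the largest exon number of that gene in only 145. This share was larger at higher levels. When the lncRNAs were cut into 10 equal bins by mean FPKM, in the lowest bin, with a median of 0.042 FPKM, 10.1% had an exon number equal to that of an mRNA opposite, and in the highest bin, with a median of 1.34 FPKM, 54.7% did. The share whose span crossed an mRNA end was 32.5% and 88.3% in the same bins. Other traits differed between these bins as well. The median exon number was 3 and 6, the median spliced length 369.5 and 1308.5 bp, and the median level of the gene opposite 1.63 and 26.7 FPKM. Their part in the shares was not tested. Among the 100 lncRNAs with the highest mean, 70 matched in exon number, 92 crossed an mRNA end and 85 had an end within 100 bp of an mRNA end.

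**Figure D1:**
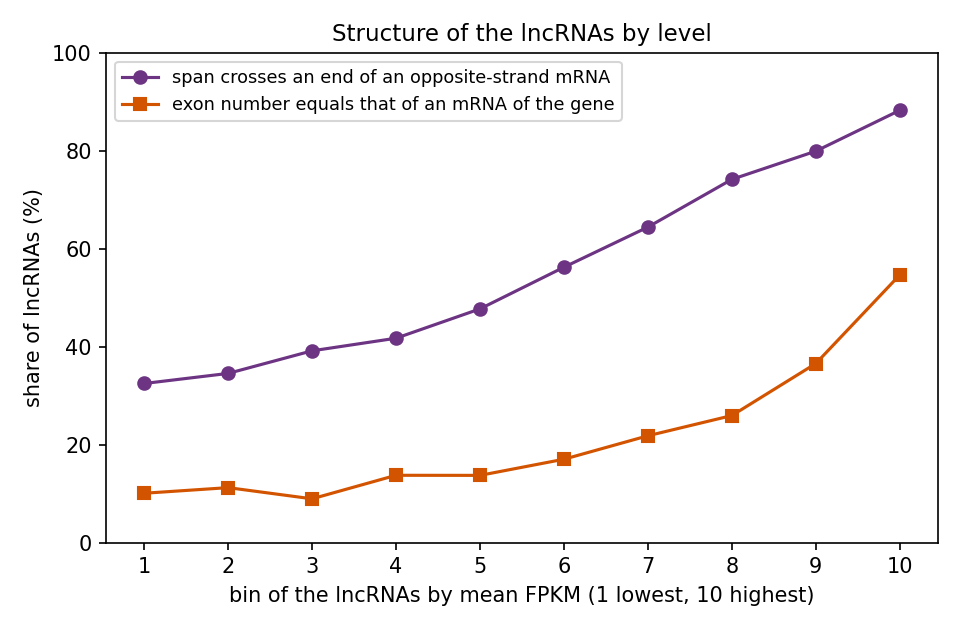
Share of unannotated intronic lncRNAs (vertical axis, percent) in 10 bins by mean FPKM (horizontal axis, lowest to highest), for spans that cross an end of an opposite-strand mRNA (circles) and for exon numbers equal to that of an mRNA of the gene opposite (squares). Crossing rises from 32.5% to 88.3%, and equal exon number from 10.1% to 54.7%.

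Most of these lncRNAs were at low levels. The mean FPKM over the 6 libraries had a median of 0.148, with 530 lncRNAs above 1, 70 above 10 and 4 above 100. FPKM exceeded 0.1 for 4471 to 4803 lncRNAs in the LT libraries and for 4618 to 4909 in the ST libraries. It did so in all 6 libraries for 1999 (25.2%) and in a single library for 1621 (20.4%). LT libraries alone passed this level for 1188, ST libraries alone for 1154, and both muscles for 5593. Just inside the selection were LNC_001365 (highest FPKM 0.1008) and LNC_010648 (0.1009), and just outside were LNC_005629 (0.0987) and LNC_009795 (0.0982). Pearson's r of log2(FPKM + 0.1) across the 7935 lncRNAs was 0.645 to 0.71 between any pair of libraries, 0.678 to 0.689 within LT and 0.674 to 0.71 within ST.

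The lncRNA with the highest mean was LNC_006926 (chr3:18253982-18260169, minus strand, 10 exons), opposite ALDOA, the gene of the glycolytic enzyme aldolase A. The LT libraries held it at 1062, 1698 and 1005 FPKM, and the ST libraries at 165, 769 and 127. All LT values were above all ST values, with ST replicate 2 between the muscles. ALDOA itself was at 7885, 8312 and 7201 FPKM in LT and at 1372, 4794 and 1328 in ST, in the same order of muscles and with the same replicate between them. The lncRNA was at 9.57 to 20.4% of ALDOA in the 6 libraries. Its fitted difference between ST and LT was -2.27 ± 0.68 (SE) on the log2(FPKM + 0.1) scale (limma, adjusted p = 0.391), and that of ALDOA was -1.92 (limma, adjusted p = 0.122). This lncRNA alone held 16.4 to 26.1% of the FPKM summed over the class in LT and 2.74 to 15.8% in ST.

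A pair of lncRNAs lay opposite MYL1, the gene of the fast-twitch essential myosin light chain. LNC_004172 (7 exons) had FPKM of 198, 228 and 156 in LT and 56.2, 167 and 13.3 in ST, and LNC_004171 (8 exons) 138, 206 and 115 in LT and 30.5, 75 and 10.6 in ST. Values of the muscles overlapped for the former and not for the latter. MYL1 had the same order of ST libraries, with 3402, 3614 and 2129.5 FPKM in LT against 837, 2185 and 308 in ST, and the 2 lncRNAs stayed at 4.31 to 7.66% and at 3.43 to 5.71% of it. LNC_007759 (10 exons), opposite TPM3, the slow-muscle tropomyosin gene, was higher in ST on average, with 63.3, 36.9 and 66.5 FPKM in LT and 303, 54.5 and 286 in ST. Here too ST replicate 2 lay among the LT values. TPM3 was at 510, 301 and 531 FPKM in LT and at 2506, 518 and 2718 in ST, and the lncRNA at 10.5 to 12.5% of it in every library. None of these differences passed the adjusted threshold (limma, adjusted p from 0.38 to 0.528).

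Among the 8 highest lncRNAs were also LNC_000886 and LNC_007222, opposite genes of ribosomal proteins. LNC_000886, opposite RPLP1, had FPKM of 269, 247 and 249 in LT and of 158, 117 and 122 in ST, with no overlap, at 4.78 to 6.23% of the gene. Its difference was -0.95 ± 0.18 (SE, log2 scale; limma, adjusted p = 0.222). LNC_007222, opposite RPL8, had 83.7, 73.5 and 78.1 FPKM in LT against 86.55, 51.5 and 76.9 in ST, and the muscles overlapped. It lay at 10.04 to 11.98% of its gene. Both lncRNAs had the exon number of an mRNA opposite. Their spans ended within 1 to 48 bp of mRNA ends of the gene opposite, not necessarily those of the mRNA with the same exon number.

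**Figure D2:**
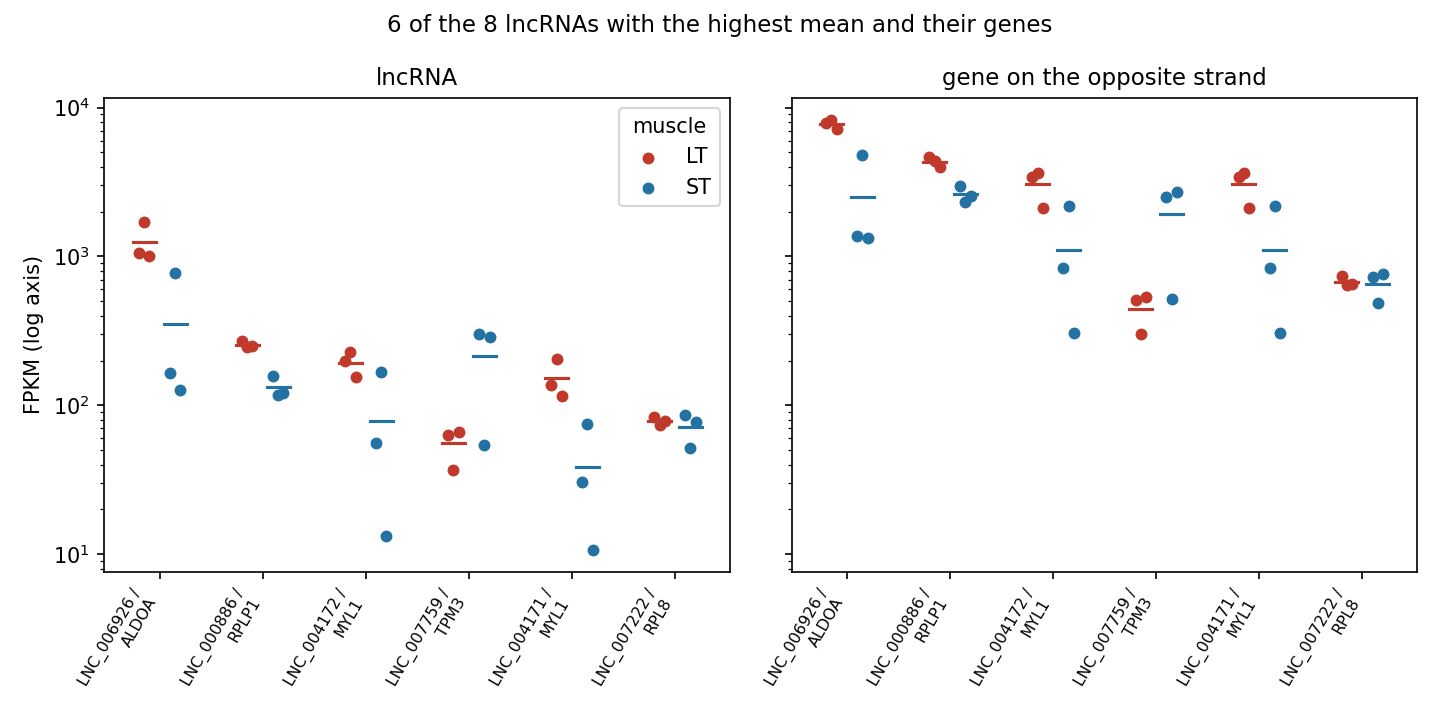
FPKM (log axis) of 6 of the 8 unannotated intronic lncRNAs with the highest mean (left) and of the gene opposite each (right), for 3 LT and 3 ST libraries, where points are libraries and lines are group means. Points of a muscle are replicates 1 to 3 from left to right, and ST replicate 2 is the highest ST library of ALDOA, MYL1 and their lncRNAs and the lowest of TPM3 and its lncRNA.

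Over all 7935 pairs, the level of a lncRNA was next set against that of the gene opposite, with FPKM summed over the mRNAs of the gene. Where both were above 0, the median lncRNA was at 4.48 to 5.44% of its gene in the 6 libraries, with the first quartile at 1.9 to 2.36% and the third at 9.7 to 11.6%. The strand setting of mapping and assembly is not given in the sources used here, so fragments of the gene counted on the wrong strand could not be told from those of the lncRNA, and each lncRNA level and percentage holds only as far as the strands were kept apart. The percentage was lower beside highly expressed genes. It had a median of 22.2 to 29.1% beside genes up to 1 FPKM, of 4.95 to 5.84% at 1 to 10 FPKM, of 1.88 to 2.29% at 10 to 100 FPKM and of 1.51 to 2.32% above 100 FPKM. The selection on a lowest level bears on the upper end of this range, since beside a weak gene only a lncRNA at a high percentage could pass 0.1 FPKM. Spearman's rho between the levels of lncRNA and gene was 0.356 to 0.412 per library across the 7935 pairs, and 0.32 to 0.378 across the 5807 lncRNAs and their hosts. For the 1135 hosted lncRNAs above 0.1 FPKM in all 6 libraries it was 0.429 to 0.528. These pairs share library and locus, and several lncRNAs can share a gene.

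**Figure D3:**
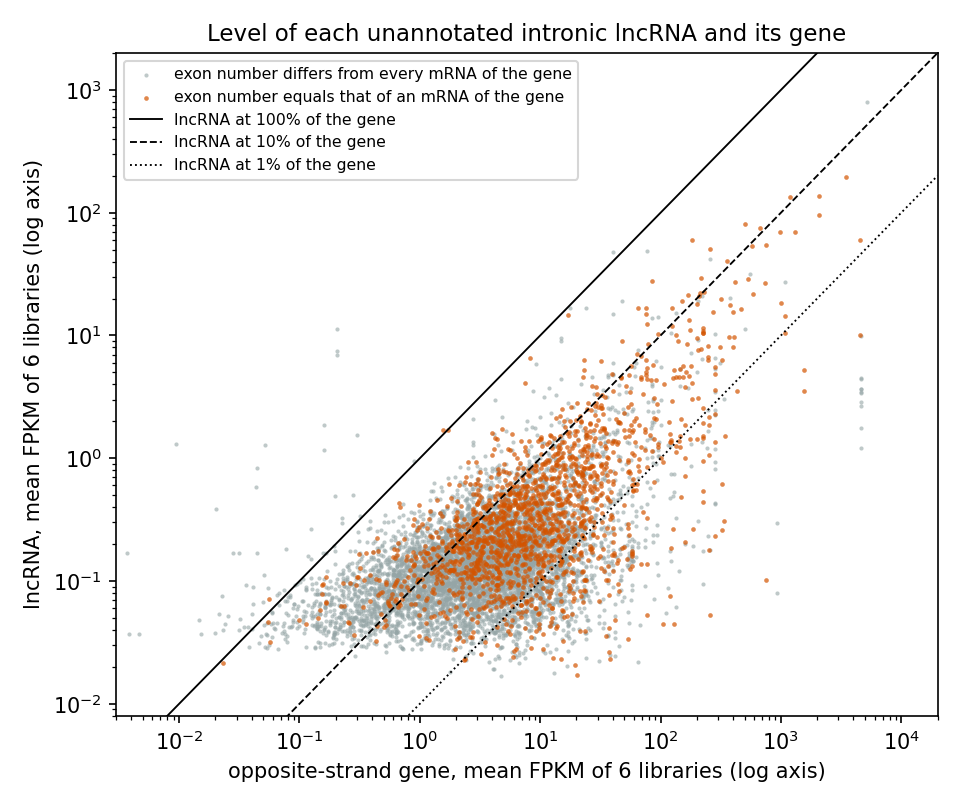
Mean FPKM of each unannotated intronic lncRNA (vertical, log axis) against mean FPKM of the gene opposite (horizontal, log axis), with lines at 100, 10 and 1% of the gene. Points with the exon number of an mRNA of the gene (orange) gather towards higher levels, and few points lie above the line at 100%. Not drawn are 4 genes listed at 0 and 1 gene below the axis.

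In 61 lncRNAs the mean was above that of the gene opposite, and 10 of these had a mean above 1 FPKM (chosen after their values were seen). The highest was LNC_005487, with 34.8 to 68.2 FPKM opposite NDUFS8, a subunit gene of respiratory complex I, which was at 22.7 to 60.5. The lncRNAs LNC_001215, LNC_001216 and LNC_001217 shared a span of which a part overlaps TNNT2, the cardiac troponin T gene, at most 0.502 FPKM in any library. Each was listed at 0 in at least 3 libraries, and their highest values were 55.9 FPKM in ST replicate 2, 24.8 in ST replicate 1 and 44.6 in ST replicate 1. LNC_011359 and LNC_011358 lay within BCO2, a carotenoid-cleaving enzyme gene at 0.0949 to 0.284 FPKM, and were themselves at 0.905 to 2.73 and at 0.747 to 2.06. LNC_004368, opposite HOXD3, was also among them and is described with the muscle differences.

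The muscles were compared with limma on log2(FPKM + 0.1) over all 52102 transcripts above 0.1 FPKM in at least 1 library, and a call required an adjusted p under 0.05 and an absolute difference above 1 on the log2 scale. Of the 7935 unannotated intronic lncRNAs 2 were called, both higher in ST, which is 0.0252%, against 0.146% of all transcripts tested. At an unadjusted p under 0.05, 474 lncRNAs (5.97%) passed, against 9.69% of all transcripts. With an absolute difference above 1 as well, called the unadjusted threshold below, 191 lncRNAs (2.41%) were higher and 194 (2.44%) lower in ST, against 4.12% and 2.84% of all transcripts tested. After quantile normalization these counts were 153 and 248. The share past this threshold in either direction differed by level. It was 0% in the lowest of the 10 bins by mean FPKM, 2.65 to 5.67% in the bins between and 8.82% in the highest. The class and all transcripts were not matched for level, and the part of level in these comparisons was not tested. The values of LT and ST did not overlap in 990 lncRNAs (12.5%), against 16.3% of all transcripts. All 3 pairs of libraries with the same number had the same direction in 1973 (24.9%), against 32.3%. The median difference was -0.02 over the lncRNAs and 0.09 over all transcripts. By FPKM times spliced length, the class as a whole made up 0.817 to 0.905% of the fragments in LT and 0.64 to 0.706% in ST, with no overlap. The part of its highest lncRNAs in this was not tested. Of those past the unadjusted threshold, 62 were listed at 0 in all libraries of a muscle. With 3 against 3 libraries the smallest 2-sided p of an exact permutation test is 0.1, which each lncRNA named below for non-overlapping muscles had.

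LNC_009470 (chr6:81522329-81526931, minus strand, 6 exons, 1018 bp) lay opposite RPL11, a gene of the large ribosomal subunit. It was listed at 0 in the 3 LT libraries and at 7.31, 5.88 and 8.06 FPKM in ST (limma, adjusted p = 0.00185). Its locus held 4 other assembled transcripts, classed as mRNAs, that differ from it by a few bases in length. One of them, Novel_007131, had 10.9, 18.3 and 16.2 FPKM in LT and 6.998, 5.69 and 6.79 in ST. Summed over all 5 transcripts, the locus was at 19.1, 18.3 and 20.05 FPKM in LT and at 22.8, 12.1 and 21.9 in ST, a difference of -0.07 (limma, adjusted p = 0.918). The locus as a whole thus overlapped between the muscles. On the RPL11 strand, the mRNA with most of the FPKM also differed by muscle, with ENSSSCT00000022802 at 326 to 361 FPKM in LT and 3.7 to 13.4 in ST, and ENSSSCT00000045795 listed at 0 in LT and at 298 to 638 in ST. RPL11 summed over its mRNAs was at 334 to 371 FPKM in LT and at 323 to 644 in ST.

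LNC_006037 (chr2:40218922-40240615, minus strand, 7 exons, 969 bp) lay within CSRP3, the gene of muscle LIM protein, a Z-disc protein of slow fibres, on the opposite strand. It was listed at 0 in LT and at 10.7, 6.96 and 39.6 FPKM in ST (limma, adjusted p = 0.0213). The only other transcript of its locus, LNC_006036, showed the reverse, with 0.373, 0.76 and 7.44 FPKM in LT and 0 in all ST libraries. It has the same exon number and the same end coordinate, and a lower start. The summed locus differed by 3.31 ± 0.97 (SE, log2 scale; limma, adjusted p = 0.148) and overlapped between the muscles. CSRP3 was at 10.4, 15.1 and 121 FPKM in LT and at 182, 149 and 719 in ST, with no overlap (difference 3.33; limma, adjusted p = 0.111). Without ST replicate 1 neither lncRNA was called.

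**Figure D4:**
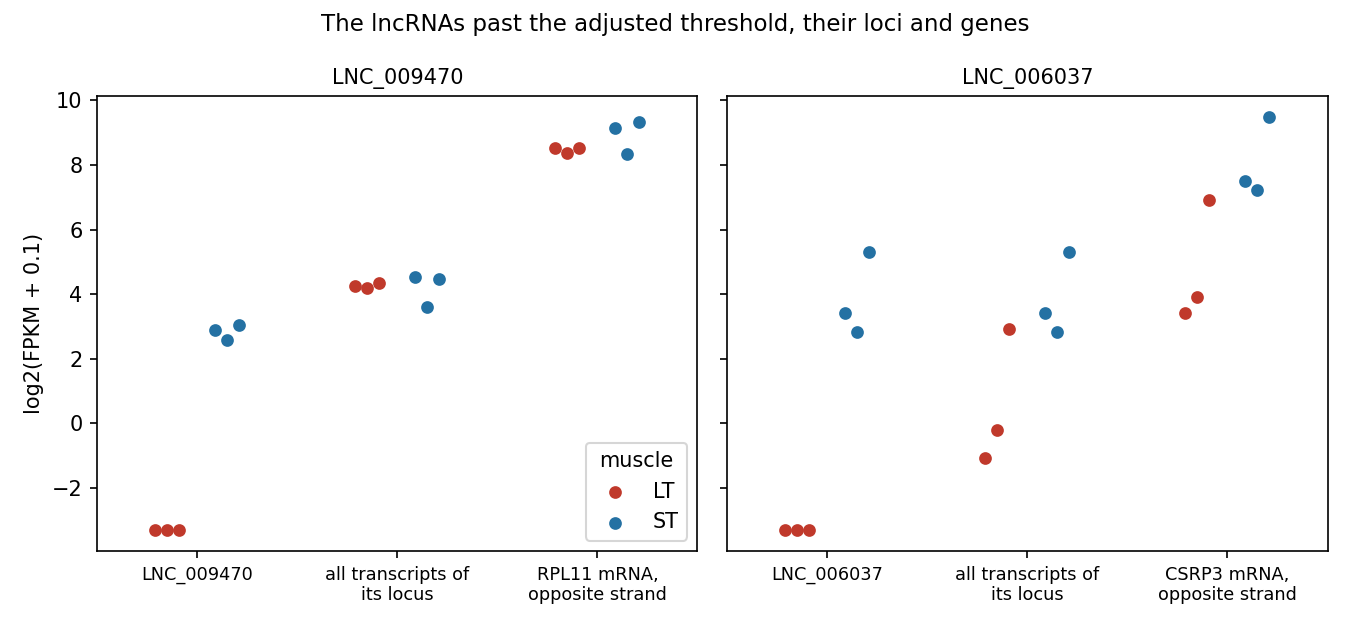
Values on the log2(FPKM + 0.1) scale of LNC_009470 (left) and LNC_006037 (right), of all transcripts of the locus of each, and of the gene opposite, for 3 LT and 3 ST libraries. The lncRNAs are listed at 0 in LT, which is the lowest position, while the summed RPL11 locus overlaps between the muscles.

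Of the lncRNAs with non-overlapping muscles, an absolute difference above 1 and at least 0.5 FPKM in the higher muscle, 48 (0.605%) were higher and 74 (0.933%) lower in ST, against 2.87% and 1.71% of all transcripts by the same criteria. The 6 with the smallest p in each direction were examined. Besides LNC_009470 and LNC_006037 the higher ones lay opposite APOD, TMEM205, SMPX and RPL17. LNC_012135, opposite SMPX, a small muscle protein of the cytoskeleton, had 2.76, 2.18 and 2.85 FPKM in LT and 8.52, 5.8 and 8.42 in ST, and differed by 1.499 ± 0.25 (SE, log2 scale; limma, adjusted p = 0.171). SMPX rose from 84.9 to 106 FPKM in LT to 228 to 357 in ST (difference 1.61; limma, adjusted p = 0.0355), and the lncRNA lay at 2.36 to 2.68% of it in every library.

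LNC_000209, opposite RPL17, had 2.87, 4.43 and 2.55 FPKM in LT and 12.7, 8.89 and 16.5 in ST (difference 1.91 ± 0.33 SE; limma, adjusted p = 0.175). LNC_000208 of the same locus, with the same exon number, had 23.5, 19.8 and 24.1 FPKM in LT and 14.5, 6.24 and 5.74 in ST, so that the differences of the 2 transcripts had opposite signs. Their sum was at 24.2 to 26.7 FPKM in LT and at 15.1 to 27.2 in ST. LNC_005675, opposite TMEM205, was listed at 0 in LT and at 0.717, 0.676 and 0.372 FPKM in ST. LNC_005674 of the same locus, with the same ends and exon number, had 0.335 to 0.636 FPKM in LT and 0 to 0.646 in ST. Their sum was at 0.335 to 0.636 FPKM in LT and at 0.676 to 1.19 in ST (limma, adjusted p = 0.237). LNC_002693, opposite the apolipoprotein gene APOD, was at 0 to 0.00494 FPKM in LT and at 0.472 to 0.576 in ST. In the APOD locus LNC_002691 had 0.284 to 2.08 FPKM in LT and was listed at 0 in ST, and the summed locus overlapped between the muscles.

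The 6 lower in ST lay opposite DCAF10, MAZ, HOXD3, RPS27L, TLE4 and ASPSCR1. LNC_001020, opposite DCAF10, a substrate adaptor of a ubiquitin ligase, had 0.728, 0.542 and 0.776 FPKM in LT and was listed at 0 in ST (limma, adjusted p = 0.0524). LNC_006919, opposite MAZ, a zinc finger transcription factor, had 0.437, 1.43 and 0.752 FPKM in LT and was also listed at 0 in ST (limma, adjusted p = 0.113). Their genes were lower in ST as well, DCAF10 at 10.8 to 14.6 FPKM in LT and 6.45 to 7.72 in ST, and MAZ at 28.4 to 37.6 and 14.4 to 18.9. Neither gene was called (limma, adjusted p = 0.0667 for DCAF10 and 0.0604 for MAZ). Other transcripts of both loci were above 0 in ST. Summed over its transcripts, the locus opposite DCAF10 was at 1.02 to 1.44 FPKM in LT and 0.317 to 0.47 in ST (limma, adjusted p = 0.0694). The locus opposite MAZ was at 2.77 to 3.29 FPKM in LT and 1.54 to 2.21 in ST (limma, adjusted p = 0.15).

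LNC_000757, opposite RPS27L, had 2.66, 3.14 and 2.91 FPKM in LT and 1.35, 0.901 and 0.868 in ST (difference -1.42 ± 0.27 SE; limma, adjusted p = 0.216). RPS27L was at 27.96 to 30.3 FPKM in LT and 14.3 to 14.6 in ST (difference -0.995; limma, adjusted p = 0.0355). LNC_000998, opposite the corepressor gene TLE4, had 0.78 to 1.1 FPKM in LT and 0 to 0.197 in ST, and LNC_001756, opposite ASPSCR1, which encodes a tether of the GLUT4 glucose transporter, 2.17 to 2.81 in LT and 0.59 to 1.11 in ST. TLE4 and ASPSCR1 themselves overlapped between the muscles, as did the summed loci of both lncRNAs.

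LNC_004368 (chr15:81930495-81968885, minus strand, 9 exons, 4592 bp) was at 2.71, 2.32 and 2.59 FPKM in LT and 0.362, 0.955 and 0.387 in ST, with no overlap (difference -2.09 ± 0.39 SE; limma, adjusted p = 0.202). It lies in the HOXD cluster, whose genes encode transcription factors that pattern the body axis and limbs. HOXD3, the gene with the largest overlap, was at 0.219 to 0.625 FPKM in LT and 0.188 to 0.269 in ST, below the lncRNA in all 6 libraries but with overlap between the muscles. The lncRNA has 9 exons and the gene at most 4. Summed with the other 3 transcripts of its locus, it was at 3.26 to 4.05 FPKM in LT and 0.473 to 1.37 in ST (difference -2.17 ± 0.34 SE; limma, adjusted p = 0.0426).

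Because transcripts of 1 locus could differ with opposite signs, FPKM was also summed over all transcripts of each assembled locus, lncRNAs and mRNAs alike, and tested with limma. Of 6361 loci that hold an unannotated intronic lncRNA 8 (0.126%) were called, against 0.466% of all 29159 loci tested. Without LT replicate 1, 2 or 3 or ST replicate 1 or 3 none was. Neither the RPL11 nor the CSRP3 locus was among them. The loci higher in ST were those opposite SMPX and GOT1, the cytosolic aspartate aminotransferase gene, each made of 1 transcript. LNC_003539, opposite GOT1, had 0.985, 0.866 and 0.591 FPKM in LT and 3.09, 2.19 and 2.84 in ST, and GOT1 28.2 to 41.0 in LT and 113 to 156 in ST (difference of the gene 1.89; limma, adjusted p = 0.0171).

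The loci lower in ST lay opposite MSS51, STARD10, HOXD3, SLN, RPS27L and MAF. The locus opposite MSS51, a gene of muscle mitochondria, summed to 1.71, 2.48 and 2.44 FPKM in LT and to 0.244, 0.0732 and 0.0807 in ST (difference -3.37 ± 0.33 SE; limma, adjusted p = 0.00729). MSS51 was at 60.9 to 86.1 FPKM in LT and 4.43 to 15.6 in ST (difference -3.43; limma, adjusted p = 0.0311). The locus opposite SLN, the gene of sarcolipin, an inhibitor of the sarcoplasmic calcium pump, summed to 10.8, 14.4 and 18.1 FPKM in LT and to 2.1, 5.12 and 1.84 in ST, and SLN to 2261 to 2640 and 105 to 1478. In each of these 8 loci but that of HOXD3, the gene opposite had the sign of its locus and muscles that did not overlap.

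Over all pairs, the difference between ST and LT of a lncRNA was set beside that of the gene opposite, and both are values on the log2(FPKM + 0.1) scale from the same 6 libraries. Over 7902 pairs with a tested gene, 61.9% had the same sign, and Pearson's r was 0.413. Among the 529 with a lncRNA mean above 1 FPKM, 77.7% had the same sign, with r = 0.588, and among the 32 above 20 FPKM, 27 had it, with r = 0.938. The median distance between the differences of lncRNA and gene was 0.415, 0.239 and 0.179 in these 3 sets. These correlations are across pairs, which are not independent, and have no p.

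**Figure D5:**
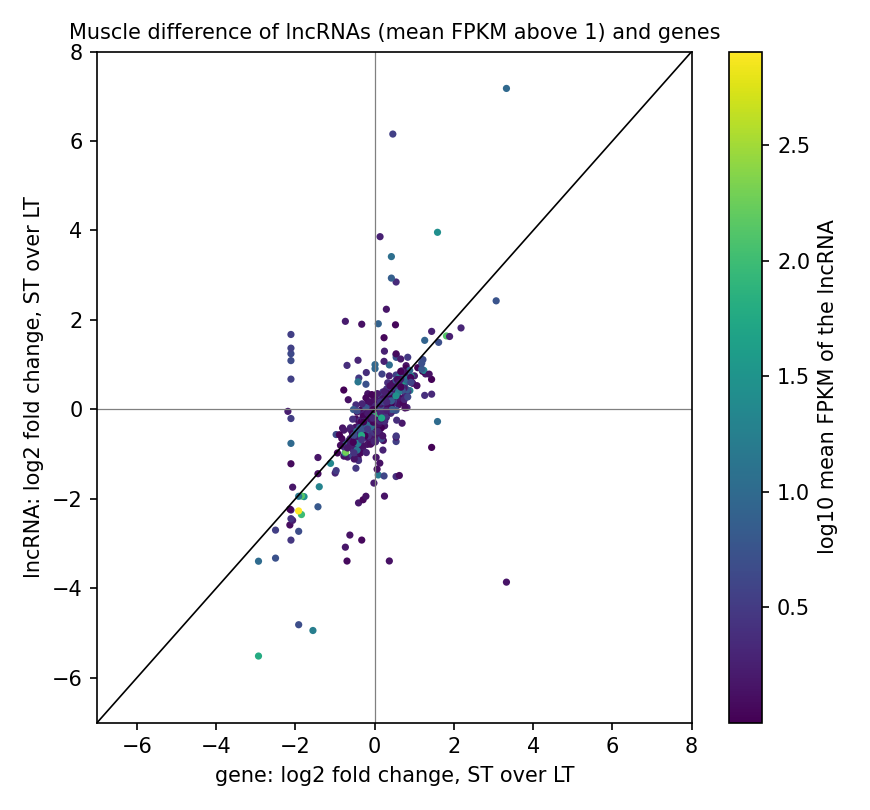
Difference between ST and LT on the log2(FPKM + 0.1) scale of 529 unannotated intronic lncRNAs with a mean above 1 FPKM (vertical) against that of the gene opposite (horizontal), coloured by lncRNA level. Points at higher levels lie near the diagonal, with r = 0.938 over the 32 lncRNAs above 20 FPKM, and the column of points near -2.11 is ENSSSCG00000029441, which could not be named, with 11 lncRNAs.

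The difference between lncRNA and gene was then tested itself, as log2(FPKM + 0.1) of the lncRNA minus that of the gene (limma, all 7935 pairs). None was called at the adjusted threshold, whereas 552 pairs (6.96%) passed the unadjusted threshold, 146 with the lncRNA higher in ST relative to its gene and 406 lower. The median over all pairs was itself below 0, at -0.196. The added 0.1 understates changes of low transcripts, and its part in this split was not tested. LNC_009470 had the adjusted p of 0.115 against RPL11 and LNC_006037 that of 0.501 against CSRP3. Of the genes opposite, 5312 were tested and 29 (0.546%) called, 20 higher and 9 lower in ST, against 0.715% of all protein-coding genes. Of the 4056 hosts tested 23 (0.567%) were called, 15 higher and 8 lower. Without ST replicate 2 the number of hosts called was 191, and without any other library 1 to 4. The 40 lncRNAs opposite a called gene had its sign in 38 cases, and 10 of them passed the unadjusted threshold.

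Genes with several lncRNAs were of different kinds. The gene ENSSSCG00000029441, which could not be named, had 11 lncRNAs in 1 locus, of which 1 passed 0.1 FPKM in all libraries, and HNRNPC, an RNA-binding protein gene, had 9. Among hosts, which contain the whole span, SPG11 and CAD had 8 each, and NIN and KIF21B 7 each. SPG11 encodes a lysosomal protein, CAD an enzyme of pyrimidine synthesis, NIN a centrosomal protein and KIF21B a kinesin. Their lncRNAs were at low levels, with means from 0.0244 to 0.293 FPKM, and came from 8 assembled loci in SPG11 and CAD, 7 in KIF21B and 3 in NIN. The highest in each was LNC_000806 (SPG11), LNC_006764 (CAD), LNC_000391 (NIN) and LNC_001212 (KIF21B), all at most 0.629 FPKM in every library. LNC_000806 had 0.0374 to 0.25 FPKM in LT and 0.331 to 0.62 in ST, and the muscles overlapped for the other 3.

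Genes of muscle structure and metabolism were taken by lists. Beside the counts below, 2.41% of the whole class passed the unadjusted threshold higher and 2.44% lower in ST. Over all transcripts tested these shares were 4.12% and 2.84%. Several lncRNAs of a list can share a locus, so the counts within a list are not independent. Of 29 sarcomere and Z-disc genes found by name, 8 had lncRNAs of this class, 16 in all, with means from 0.0219 to 135 FPKM. None was called, and 1 passed the unadjusted threshold higher and 3 lower. The median difference was -0.54 over these 16 lncRNAs. Over all genes of the list tested, most of them without such a lncRNA, it was 0.41, so the sets are unlike. The spans of 15 of the 16 crossed an mRNA end. TNNT3, the fast skeletal troponin T gene, contained LNC_005905 and LNC_005906 on the opposite strand. LNC_005905 (15 exons) had 244, 96.2 and 3.29 FPKM in LT and 0.419, 16 and 0 in ST, and LNC_005906 (16 exons) 55.1, 2.37 and 1.43 in LT and 0.383, 0.804 and 0.312 in ST, so that the LT libraries differed more among themselves than for TNNT3, at 5185 to 8127. The summed locus of 6 transcripts was at 584 to 1012 FPKM in LT and 42.4 to 622 in ST. LNC_005462 also lies within TNNT3 by position, but it is opposite CTSD, the cathepsin D gene, whose exon number of 9 it shares, and was at 9.54 to 10.8% of CTSD in every library.

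For energy metabolism 7 of 26 genes found had 11 lncRNAs, with LNC_006926 at ALDOA the highest. None was called, and 4 passed the unadjusted threshold lower in ST. The median difference was -0.72 over these 11 lncRNAs and -1.05 over all genes of the list tested, most of them without such a lncRNA. LNC_012197 and LNC_012198, each of 32 exons, lay opposite PHKA1, the muscle phosphorylase kinase subunit, which has an mRNA of 32 exons as well. LNC_012198 had 1.69, 2.11 and 1.82 FPKM in LT and 0.114, 0.763 and 0.299 in ST, with no overlap (difference -2.23 ± 0.53 SE; limma, adjusted p = 0.284). PHKA1 was at 154 to 244 FPKM in LT and 26.9 to 131 in ST. Glycolytic and glycogen genes without such a lncRNA included PFKM, PYGM, ENO3, PKM and LDHA.

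Of 20 genes of calcium handling 7 had 10 lncRNAs, none past the unadjusted threshold, at means of up to 1.61 FPKM. LNC_003466 (19 exons), opposite CAMK2G, a subunit of calmodulin-dependent kinase, had 1.44 to 2.17 FPKM in LT and 1.18 to 1.76 in ST, at 3.54 to 5.19% of its gene. LNC_005887, opposite CAMK2A, had 0.579 to 1.08 in LT and 0.162 to 0.815 in ST. Fibre type and muscle regulators had the widest cover, with 25 lncRNAs opposite 17 of 31 genes, at means of 0.0472 to 19.7 FPKM. Those named next were picked by host and do not include the highest. Of the 25 lncRNAs 2 passed the unadjusted threshold, both lower in ST. LNC_000839, opposite MEF2A, a transcription factor of muscle differentiation, had 1.01, 1.57 and 1.69 FPKM in LT and 0.627, 0.837 and 0.723 in ST, with no overlap but a difference within 1 (-0.85; limma, unadjusted p = 0.0293), so it is not among these 2. Among them was LNC_009175, opposite NFATC3, a calcineurin-dependent factor, with 0.834 to 1.25 FPKM in LT and 0.0312 to 0.799 in ST. LNC_009021, opposite NFIA, overlapped between the muscles at 0.293 to 0.769 FPKM.

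Of 19 adipocyte and lipid storage genes 6 had 9 lncRNAs, at means of 0.0503 to 0.704 FPKM, and 1 passed the unadjusted threshold. That was LNC_006799, opposite LPIN1, the lipin gene of triglyceride synthesis, listed at 0, 0 and 0.0162 FPKM in LT and at 0.448, 0.143 and 0.105 in ST (difference 1.52 ± 0.48 SE; limma, adjusted p = 0.418). LNC_006798 of the same locus was at 0.865 FPKM in LT replicate 3 and at most 0.00696 elsewhere. The summed locus of 5 transcripts was at 0.477 to 1.71 FPKM in LT and 0.686 to 1.54 in ST (limma, adjusted p = 0.852). LPIN1 itself overlapped between the muscles as well. LNC_002959, opposite PPARG, the regulator of adipocyte differentiation, was at 0 to 0.301 FPKM with overlap between the muscles. For the extracellular matrix 6 of 16 genes found had 9 lncRNAs, none past the unadjusted threshold. LNC_008499, opposite the proteoglycan gene DCN, had 1.65 to 2.12 FPKM in LT and 0.185 to 1.88 in ST. LNC_011191 (opposite the laminin gene LAMB1) and LNC_001524 (opposite POSTN, a matricellular protein gene) were at most 0.804 FPKM in every library. The lists were compiled with earlier results of these data known, and no direction is drawn from them.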

How the data were processed

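Transcripts of LT and ST muscles from 3 pigs were given by the authors as 1 FPKM value per transcript and library. According to the methods, reads were filtered with SOAPnuke and mapped with HISAT2 2.1.0 to Sscrofa11.1. Transcripts were assembled and quantified with StringTie and scored as non-coding with CNCI, CPC2 and PLEK. The strand setting of mapping and assembly is not given in the sources used here. The deposited FPKM, class, exon number, length and position were taken as they stand, and the class was used as given.

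The files were joined by transcript. FPKM of protein-coding genes was summed over their mRNAs. A host gene contains the whole span of a lncRNA, on either strand, and the shortest was used. The gene opposite is the opposite-strand gene with the largest overlap. Gene names came from a table of gene IDs and, for 300 of the genes opposite, from RefSeq by a reciprocal overlap of at least 0.5. Fold changes are on log2(FPKM + 0.1), which understates changes of low transcripts. Tests used limma 3.58.1 in R 4.3.3 with a variance trend and Benjamini-Hochberg adjustment over all features of a fit. Other steps used Python 3.11.15 with pandas 2.3.3, numpy 2.4.6, scipy 1.17.1 and matplotlib 3.10.9. The fits were checked on simulated data. There, the changed transcripts lay at levels above those of most of this class and were shifted by a large amount. Recovery was thus not checked at the low levels of most lncRNAs here.

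Libraries of the muscles share numbers in the titles, but no source says that a number marks a pig. The main fit has no block, since the methods name none. The p-values set a difference against the spread between the libraries of 3 pigs per muscle, without pairing, and limma also draws on the spread of other transcripts. A muscle listed at 0 in all its libraries, as LT was for LNC_009470 and LNC_006037, adds no spread of its own. Such p-values do not measure the spread between pigs in that muscle.

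The members and gene lists were chosen with earlier results of these data known. Named were all lncRNAs called, the 8 with the highest mean, the 6 with the smallest p in each direction (criteria in the text), the highest lncRNA of the 5 hosts with the most, the longest and the one with the most exons, up to 3 per gene list by host, and 2 on each side of 0.1 FPKM. Some of the lncRNAs and genes under these rules are not reported here. Alternatives were other pseudocounts, filters, scalings, a block by replicate number, no variance trend, and leaving out each library. Sums by assembled locus, the test against the gene opposite, and the gene opposite in place of the host were added after seeing the data. Sequences were not analysed here.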

Additional observations from a re-analysis of the deposited data

How the results depend on the processing

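Of 567 alternative values of the log2 difference of the 41 lncRNAs named, 534 kept direction and side of the threshold, 10 lost a call, 7 gained one and 16 changed sign. The number of lncRNAs called, 2 as reported, was 1 with a pseudocount of 1 and 1 without a filter on FPKM, 6 with a filter of 3 libraries, 4 without a variance trend, 0 with the replicate block, and 0 to 2 with a library left out. LNC_009470 was among them under every alternative run except the replicate block and without ST replicate 1, and LNC_006037 was lost with a pseudocount of 1, no filter, the block and every library left out but ST replicate 3. The number past the unadjusted threshold was 29 with a pseudocount of 1. Hosts called, 23 as reported, were 15 with a pseudocount of 1, 2 without a filter, 12 after quantile normalization, 7 without a variance trend, 190 with the replicate block, and 1 to 191 with a library left out. Loci called, 8 as reported, were 4 and 5 with pseudocounts of 0.01 and 1, 0 without a filter, 3 after quantile normalization, 1 without a variance trend, 78 with the replicate block, and 0 to 8 with a library left out. Pairs past the unadjusted threshold for the difference from the gene were 195 with a pseudocount of 1 and 300 with a filter of 3 libraries. The muscles share replicate numbers. Deviations from the muscle means correlated by 0.083, 0.072 and 0.091 between libraries of the same number and by -0.051 to -0.032 between others, so every library correlated best with its own number, which is a hint of pairing from the data and not from the design.

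An overlap with a gene on the same strand, contained in it or not, was found for 271 lncRNAs, and 100 hosts were on the same strand. Among lncRNAs above 0.1 FPKM in at least 3 libraries, 3364 had a host. The mean Spearman's rho of lncRNA and host, 0.347, became 0.427 as Pearson's r on log2 values, 0.479 for lncRNAs above 0.1 FPKM in all libraries and 0.39 with the gene opposite. Signs changed only among differences that were not called. LNC_001524 was at 0.50 with a pseudocount of 0.01, LNC_002959 at -0.0042 and -0.063 with a pseudocount of 1 and after quantile normalization, and LNC_005462 at -0.15 after quantile normalization. With a library left out, the difference ran from -2.00 to 0.014 for LNC_000416, from -0.81 to 0.34 for LNC_001212, from -0.49 to 0.70 for LNC_001524, from -0.54 to 0.29 for LNC_002959, from -0.26 to 0.25 for LNC_005462, from -0.86 to 0.17 for LNC_006764, from -0.32 to 0.059 for LNC_007222 and from -0.44 to 0.096 for LNC_009021. The cause of these changes was not tested.

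Files without counts leave the depth behind each FPKM unknown, and a value listed at 0 cannot be told apart from a failed estimate. StringTie divides fragments among near-identical transcripts of a locus, so values of single transcripts there are uncertain. Exons of the lncRNAs were not placed. With 3 pigs per muscle, a permutation test of a single lncRNA cannot reach 0.05.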
